A study of Homo sapiens with 12 samples.

Results

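Ribosome biogenesis and RNA polymerase I genes were followed in AC16, an established human line that arose from fusion of ventricular cardiomyocytes with a fibroblast line. The genes were chosen by symbol from the table of gene counts. They were every symbol that begins with UTP, NOP or RRP and a digit, the subunits POLR1A to POLR1H, and NCL, NPM1, FBL, DKC1, NOLC1, BOP1, PES1, WDR12, UBTF and RRN3. This gave 45 of 17197 symbols, and all 45 passed the filter on low counts that left 13171 genes for testing. All 45 are protein-coding and they lie on 22 chromosomes. AC16 cells were transfected with a negative control siRNA (group siNC, libraries 1 to 3) or an siRNA against EP300 (siEP300, libraries 4 to 6). EP300 encodes an acetyltransferase that modifies histones and other proteins at enhancers and promoters. Further cells received the same siRNAs and, 12 h after transfection, hydrogen peroxide for 1 h (siNC.H2O2, libraries 7 to 9, and siEP300.H2O2, libraries 10 to 12). RNA was taken after 48 h in every group. The peroxide concentration is labelled 200 mM, and the labels give nothing to check that unit against. Cells of all 4 groups carried the transfection reagent and spent part of the protocol in serum-free medium, and the labels do not say whether the siRNA was 1 sequence or a pool.

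Ribosomes are assembled in the nucleolus. RNA polymerase I transcribes the ribosomal DNA into a long precursor, with UBTF bound along the repeats and RRN3 bringing the polymerase to the promoter. Small nucleolar ribonucleoproteins (snoRNPs) then methylate and pseudouridylate the precursor, the small subunit processome folds and cleaves its 18S part, and a separate set of factors matures the large subunit. The 45 genes were read in that order: 10 of RNA polymerase I, 17 of the small subunit processome and 40S maturation, 6 of the snoRNP core, 10 of the large subunit and 2 nucleolar chaperones.

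The promoters of 4 members that moved in the same direction with EP300 siRNA in both settings are shown, UTP18 and POLR1D for those that fell and RRP15 and UTP11 for those that rose, chosen among windows with few annotated exon bases. Each is the 250 bases before the RefSeq start in GRCh38.p14, on the plus strand. They lie at chr17:51260296-51260545 (UTP18), chr13:27620493-27620742 (POLR1D), chr1:218285043-218285292 (RRP15) and chr1:38012484-38012733 (UTP11). Capitals mark matches, on either strand, to the E-box CACGTG, the SP1 box GGGCGG, the ETS core CCGGAAG, the NFY box CCAAT or the consensus palindrome of NRF1.
UTP18: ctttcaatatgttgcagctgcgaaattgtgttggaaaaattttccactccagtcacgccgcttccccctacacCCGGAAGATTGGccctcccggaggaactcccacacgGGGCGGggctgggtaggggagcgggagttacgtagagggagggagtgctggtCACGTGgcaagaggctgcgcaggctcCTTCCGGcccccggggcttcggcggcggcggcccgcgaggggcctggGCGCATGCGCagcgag
POLR1D: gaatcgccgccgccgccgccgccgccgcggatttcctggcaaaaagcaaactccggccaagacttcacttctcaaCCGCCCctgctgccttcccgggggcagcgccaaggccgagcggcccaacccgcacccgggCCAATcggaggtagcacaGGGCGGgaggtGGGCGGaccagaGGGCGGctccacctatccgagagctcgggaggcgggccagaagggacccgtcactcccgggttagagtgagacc
RRP15: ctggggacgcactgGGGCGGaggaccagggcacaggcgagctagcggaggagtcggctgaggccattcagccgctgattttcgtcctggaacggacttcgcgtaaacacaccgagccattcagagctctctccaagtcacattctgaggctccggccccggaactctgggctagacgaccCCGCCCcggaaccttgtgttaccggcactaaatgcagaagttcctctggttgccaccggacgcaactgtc
UTP11: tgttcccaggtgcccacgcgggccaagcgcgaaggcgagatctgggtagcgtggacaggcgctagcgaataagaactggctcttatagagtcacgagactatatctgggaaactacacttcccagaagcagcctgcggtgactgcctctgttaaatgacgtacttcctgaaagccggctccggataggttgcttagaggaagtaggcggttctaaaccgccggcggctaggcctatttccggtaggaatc
The UTP18 window held all 5 motifs, with CCGGAAG present 2 times and 1 of these directly followed by a reversed CCAAT, and the motifs shared no base. POLR1D held 4 matches to GGGCGG and 1 to CCAAT, RRP15 held 2 to GGGCGG, and UTP11 held none of the 5. These 4 windows do not stand for the other members of their direction. RRN3 and NOP14, which also fell in both settings, held 0 and 1 of the 5 motifs. POLR1B and UTP3, which also rose in both, held 2 and 1. RefSeq promoters were matched by symbol for 38 of the 45 members. Some of these 38 windows, such as those of NOP2, POLR1A and WDR12, were annotated exon in all 250 bases. Exon bases over all promoters were not counted. The E-box was in 6 of these 38 windows (15.8%) and in 6.49% of all 27305 promoters of that length in the table. CCGGAAG was in 26.3% against 8.82% of all promoters, and the NRF1 palindrome in 5.26% (2 windows) against 1.13%. GGGCGG was in 55.3% against 42.3%, and CCAAT in 26.3% against 33.0%. Promoters of the deposited symbols alone held the E-box in 8.30%, CCGGAAG in 13.2%, the NRF1 palindrome in 1.64%, GGGCGG in 60.9% and CCAAT in 34.8%. A match is a run of letters and no evidence of binding.

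Estimated counts summed to between 16081437 and 19033679 per library, and the 45 members together took 0.488% to 0.607% of them. EP300 itself fell with its siRNA, with log2 fold changes (± SE) of -1.19 ± 0.14 without and -1.46 ± 0.14 with H2O2 (edgeR adjusted p = 3.6e-06 and 5.85e-07). In the labels of these 6 samples a treatment field gives MLF1 as the target where the titles give EP300. MLF1 fell with log2 fold changes of -0.22 ± 0.059 and -0.29 ± 0.059 (edgeR adjusted p = 0.00519 and 0.000686). CREBBP, read with EP300 and MLF1 as a check of the labels, rose by 0.48 ± 0.088 and 0.50 ± 0.089 (edgeR adjusted p = 0.000245 and 0.000192). The groups here follow the sample titles. Of 16 cardiomyocyte markers, 14 were in the table and 4 were tested. The contractile genes TNNT2, MYH6, MYH7 and MYL2 had at most 3 counts in any library, whereas the natriuretic peptide gene NPPB, the transcription factor GATA4 and the filament gene DES reached 1159, 259 and 114 counts. The list summed to 59.5 to 61.7 CPM (the count scaled to the TMM-adjusted library total) in siNC, 45.5 to 48.00 in siEP300, 63.4 to 79.1 in siNC.H2O2 and 46.5 to 54.4 in siEP300.H2O2. All 10 fibroblast markers were tested and summed to 4813 to 7412 CPM. By group that sum was 6686 to 7203 CPM in siNC, 7156 to 7412 in siEP300, 5579 to 6136 in siNC.H2O2 and 4813 to 4850.3 in siEP300.H2O2. The 6 smooth muscle markers, 5 of them tested, summed to 400.2 to 427 CPM, 603 to 614, 555 to 627 and 708 to 873 in the same order. The 7 epithelial markers, 6 of them tested, summed to 356 to 398, 327 to 332, 575 to 627 and 447 to 524 CPM. These sums rest largely on a few genes. In siNC the means of KRT18 and KRT8 were 283.9 and 91.3 CPM, beside 1.11 for CDH1 and 1.95 for EPCAM. Genes of a list also moved in opposite directions. From siNC to siEP300, mean DCN went from 92.1 to 25.9 CPM and LUM from 167.5 to 86.6. COL1A2 went from 869.6 to 1485 CPM. Among smooth muscle markers, TAGLN went from 269.7 to 463 CPM and CNN1 from 44.97 to 15.98. The part of these shifts in the results below was not tested. Separate cultures behind the 3 libraries of a group are not stated in the labels, so each p-value speaks to the spread among these libraries, which may be technical. These are bulk samples, in which fewer cells of a type and less RNA per cell cannot be told apart. Libraries also differed within groups along 1 axis that held 28.6% of the within-group variance. Its loadings correlated across genes with the transcript length implied by the deposited counts and FPKM (Spearman rho 0.71 over 12595 genes, which are not independent replicates). The mean loading of the members stood at percentile 36.6. Libraries siNC 1 (score 17.6), siEP300.H2O2 10 (15.8) and siNC.H2O2 9 (12.1) lay opposite siNC.H2O2 7 (-13.9) and siNC 2 (-11.4).

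On the deposited FPKM scale, which divides by transcript length and so allows levels to be set between genes, the members spanned a wide range in untreated control cells. NPM1, a histone and ribosomal protein chaperone of the granular part of the nucleolus, stood highest at 1239 ± 39.8 FPKM (SD, n = 3). NOP10 (288 ± 29.4), NCL (268 ± 8.98), FBL (265 ± 24.9) and NOP53 (235 ± 28.8) followed, and the order among NOP10, NCL, FBL and NOP53 lay within their spread. NOP56 (109 ± 4.92) and POLR1D (100.5 ± 13.5) were the other members at or above 100 FPKM. The median member stood at 29.5 FPKM and 10 members were under 10 FPKM. POLR1A (5.34 ± 0.71) and POLR1B (4.24 ± 0.35), the catalytic subunits of RNA polymerase I, were among those 10, and POLR1D, a small subunit that the enzyme shares with RNA polymerase III, was far above them. UTP14C was the lowest at 0.403 ± 0.308 FPKM, followed by UTP25 (3.44 ± 0.27) and POLR1G (3.45 ± 0.21). UTP14C and POLR1G overlap other genes and are uncertain, as set out below.

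EP300 siRNA moved many of these genes, in both directions. Without H2O2, 11 members rose and 16 fell at an adjusted p under 0.05, which is 60% of the members, where 61.5% of all genes tested were called (30.1% higher, 31.4% lower). With H2O2, 14 rose and 11 fell, 55.6% of the members against 59% of all genes (28.4% higher, 30.6% lower). The share of members called was therefore near that of the transcriptome in both settings. The median log2 fold change of the members was -0.04 without and 0.08 with H2O2, beside -0.004 and -0.02 over all genes tested. The 2 comparisons share no library. In both of them 9 members rose (NOLC1, POLR1A, POLR1B, RRP15, RRP7A, UTP11, UTP23, UTP3 and UTP6), where 23.4% of all genes rose in both. In both of them 11 fell (UTP18, NOP14, RRP1B, POLR1G, PES1, DKC1, POLR1C, POLR1E, UTP14A, POLR1D and RRN3), where 25.1% of all genes fell in both. None was called in opposite directions and 13 were called in neither. Shares of all genes for these 2 counts are not given, so they are no result about the members. Changes over 1.5-fold without H2O2 numbered 2 higher and 9 lower (8 without UTP14C, described below), where 9.63% and 14.7% of all genes changed so, and with H2O2 2 higher and 6 lower, where 8.94% and 14% did. With library totals alone as scaling the calls without H2O2 were 6 higher and 18 lower, where 24.8% and 36.4% of all genes were, and with an offset for transcript length they were 15 and 15, where 37.5% and 30.1% were.

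**Figure D1:**
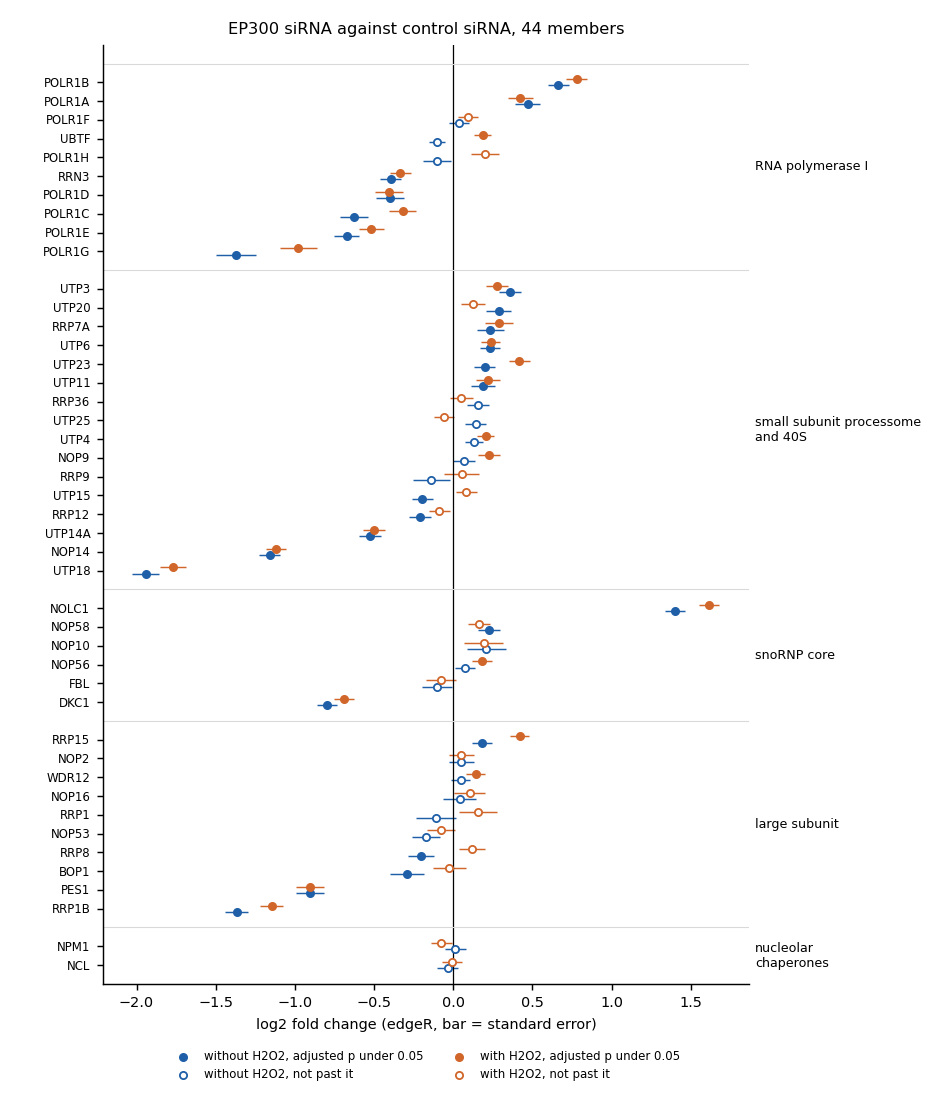
Log2 fold change (x axis, edgeR, bars are standard errors) of EP300 siRNA against control siRNA for 44 members grouped by role, without H2O2 (blue) and with it (orange); filled points passed an adjusted p of 0.05. UTP18 lies lowest and NOLC1 highest in both settings, and UTP14C is left out because it had 0 counts in every EP300 siRNA library.

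Among the RNA polymerase I genes, the 2 large subunits rose and most of the smaller ones fell with EP300 siRNA. Of the 10 genes, 2 rose and 5 fell without H2O2 (20% and 50%), and 3 rose and 5 fell with it (30% and 50%). Of all genes, 30.1% rose and 31.4% fell without H2O2, and 28.4% and 30.6% with it. No role was tested against these shares. POLR1A, which carries most of the active site, was at 69.99, 53.8 and 63.6 CPM in siNC, 85.2, 84.7 and 89.6 in siEP300, 66.2, 71.3 and 70.99 in siNC.H2O2 and 100.0, 90.5 and 89.2 in siEP300.H2O2. Every EP300 siRNA library was above every control siRNA library of the same setting, with log2 fold changes of 0.47 ± 0.081 and 0.42 ± 0.081 (edgeR adjusted p = 0.000151 and 0.000376). POLR1B, its partner in the catalytic core, was at 32.3, 27.9 and 28.5 CPM in siNC, 45.4, 47.1 and 48.02 in siEP300, 31.2, 29.6 and 32.1 in siNC.H2O2 and 54.2, 52.5 and 53.1 in siEP300.H2O2. Its groups did not overlap either, at 0.67 ± 0.065 and 0.78 ± 0.065 (edgeR adjusted p = 5.57e-07 and 1.04e-07).

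POLR1G forms a heterodimer with POLR1E on the flank of the enzyme, and both fell. POLR1G (chr19:45406209-45410766, plus strand, GRCh38) was at 8.13, 8.96 and 7.95 CPM in siNC, 3.003, 2.83 and 3.82 in siEP300, 8.35, 9.30 and 9.10 in siNC.H2O2 and 4.14, 4.69 and 4.74 in siEP300.H2O2. The 6 EP300 siRNA libraries lay below the 6 control siRNA libraries, and the fold changes were -1.37 ± 0.12 and -0.98 ± 0.12 (log2, edgeR adjusted p = 2.67e-07 and 5.3e-06). POLR1G is uncertain, because 40.8% of its 100-base windows match another annotated transcript, mainly ERCC1 on the opposite strand, and the strand setting of the counting is not given in the sources used here. ERCC1 itself fell with log2 fold changes of -0.26 ± 0.074 and -0.29 ± 0.075 (edgeR adjusted p = 0.00772 and 0.0035). POLR1E fell with log2 fold changes of -0.67 ± 0.077 and -0.52 ± 0.077 (edgeR adjusted p = 2.95e-06 and 4.06e-05).

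POLR1C and POLR1D, the pair of subunits shared with RNA polymerase III, fell as well. POLR1C was at 27.8, 29.1 and 28.1 CPM in siNC, 17.5, 18.9 and 18.8 in siEP300, 42.3, 37.8 and 33.3 in siNC.H2O2 and 28.1, 32.7 and 30.2 in siEP300.H2O2, for log2 fold changes of -0.62 ± 0.089 and -0.32 ± 0.084 (edgeR adjusted p = 2.46e-05 and 0.0044). In both settings the EP300 siRNA libraries were all lower, and the siEP300.H2O2 libraries stood at about the level of siNC. POLR1D fell with log2 fold changes of -0.40 ± 0.088 and -0.40 ± 0.088 (edgeR adjusted p = 0.00112 and 0.00106). RRN3, the factor that carries the initiation-competent enzyme to the promoter, was at 101, 85.6 and 100.4 CPM in siNC, 70.1, 70.4 and 77.4 in siEP300, 114, 114 and 113 in siNC.H2O2 and 89.8, 86.3 and 93.8 in siEP300.H2O2. Its libraries did not overlap in either setting, with log2 fold changes of -0.40 ± 0.068 and -0.33 ± 0.067 (edgeR adjusted p = 0.000137 and 0.000556). In RRN3, 18.2% of the windows match other annotated genes, with AC009093.9 the largest partner at 12.5%. POLR1F, a stalk subunit, was not called in either setting (0.04 and 0.09).

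Of the 17 small subunit genes, 6 rose and 6 fell without H2O2 (35.3% and 35.3%), and 7 rose and 3 fell with it (41.2% and 17.6%). Of all genes, 30.1% rose and 31.4% fell without H2O2, and 28.4% and 30.6% with it. The largest changes among the 17 were falls. UTP18, a WD-repeat subunit of the UTP-B complex of the processome (chr17:51260528-51297936, plus strand), was at 91.1, 103 and 103 CPM in siNC and 24.6, 27.5 and 25.1 in siEP300. With H2O2 it was at 144, 130.9 and 115 CPM in siNC.H2O2 and 37.9, 37.3 and 38.98 in siEP300.H2O2. The lowest control library was above every EP300 siRNA library by a wide margin, and 26.03% of the control level was left without H2O2 and 29.3% with it (log2 fold changes -1.94 ± 0.085 and -1.77 ± 0.082, edgeR adjusted p = 1.71e-10 and 2.53e-10). No window of UTP18 matches another annotated gene. NOP14, which joins the processome with EMG1 and NOC4L (chr4:2937933-2963385, minus strand), was at 73.7, 68.2 and 75.2 CPM in siNC, 31.5, 32.98 and 32.8 in siEP300, 91.7, 96.2 and 82.1 in siNC.H2O2 and 41.4, 40.9 and 41.9 in siEP300.H2O2. It was lower in all EP300 siRNA libraries, with log2 fold changes of -1.16 ± 0.067 and -1.12 ± 0.066 (edgeR adjusted p = 2.44e-09 and 2.65e-09).

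UTP14A activates the helicase DHX37 in the processome, and UTP14C is a copy of it that arose by retrotransposition. UTP14A was at 62.4, 57.4 and 62.1 CPM in siNC, 41.4, 42.6 and 42.4 in siEP300, 79.9, 72.7 and 66.7 in siNC.H2O2 and 50.8, 50.8 and 53.5 in siEP300.H2O2. The groups did not overlap and UTP14A fell with log2 fold changes of -0.53 ± 0.068 and -0.50 ± 0.067 (edgeR adjusted p = 9.57e-06 and 1.44e-05). UTP14C (chr13:52024691-52033600, plus strand) was at 0.792, 1.51 and 3.76 CPM in siNC, which is 15 to 71 counts, and at 0 in all 6 EP300 siRNA libraries. In siNC.H2O2 it had 0 CPM in libraries 7 and 8 and 1.25 CPM in library 9. Against a floor of 3 counts per library its mean was at least 12.2-fold lower in siEP300 than in siNC. It passed the filter on low counts only through the siNC libraries, where it is high, so its call has no weight as a test. Without it 15 members fell in place of 16, and 5 of the small subunit genes in place of 6. This gene is uncertain, since 73.7% of its windows lie in exons of ALG11 on the same strand, which fell with log2 fold changes of -0.44 ± 0.090 and -0.64 ± 0.090 (edgeR adjusted p = 0.000643 and 2.18e-05). UTP14A shares 2.16% of its windows with other genes.

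The processome members that rose did so by less than UTP18, NOP14 or UTP14A fell. UTP3 was at 40.9, 45.3 and 46.1 CPM in siNC, 55.5, 59.05 and 55.2 in siEP300, 57.3, 53.6 and 49.2 in siNC.H2O2 and 62.2, 65.5 and 66.00 in siEP300.H2O2. Its EP300 siRNA libraries were all above the controls of their setting, at 0.36 ± 0.069 and 0.28 ± 0.068 (edgeR adjusted p = 0.00036 and 0.00277). UTP6, a UTP-B subunit like UTP18, rose by 0.23 ± 0.062 and 0.24 ± 0.062 (edgeR adjusted p = 0.0046 and 0.00419), so subunits of 1 complex were called in opposite directions. UTP23, UTP11 and RRP7A also rose in both settings, by 0.19 to 0.42. UTP20 rose by 0.29 without H2O2 and stood at 0.12 with it (edgeR adjusted p = 0.183), while UTP4 and NOP9 passed the threshold with H2O2 (0.21 and 0.23) and stood at 0.13 and 0.07 without it. UTP15, a UTP-A subunit, and RRP12, an export factor of the pre-40S particle, fell by 0.19 and 0.21 without H2O2 and were not called with it. RRP9, RRP36 and UTP25 were called in neither.

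In the snoRNP core, which guides methylation by box C/D and pseudouridylation by box H/ACA particles, 2 of 6 genes rose and 1 fell in each setting. That is 33.3% and 16.7%, where 30.1% and 31.4% of all genes did without H2O2, and 28.4% and 30.6% with it. NOLC1, a phosphoprotein that binds both kinds of snoRNP in the nucleolus and Cajal bodies (chr10:102152176-102163871, plus strand), had the largest rise of the 45 genes. It was at 62.1, 59.01 and 63.7 CPM in siNC and 160.3, 158 and 169.9 in siEP300, and at 73.5, 64.9 and 78.4 CPM in siNC.H2O2 and 219, 223 and 224 in siEP300.H2O2. The EP300 siRNA libraries were all at more than 1.5 times the highest control library, with fold changes of 2.64 and 3.07 (log2 1.40 ± 0.065 and 1.62 ± 0.065, edgeR adjusted p = 2.69e-10 and 7.55e-11). DKC1, the pseudouridine synthase of box H/ACA particles, went the other way. Its level was 103, 101 and 107 CPM in siNC, 57.8, 61.99 and 59.1 in siEP300, 139, 132 and 120.3 in siNC.H2O2 and 76.5, 80.1 and 85.5 in siEP300.H2O2. The groups did not overlap in either setting, and DKC1 fell with log2 fold changes of -0.80 ± 0.064 and -0.69 ± 0.063 (edgeR adjusted p = 7.56e-08 and 3.03e-07).

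The box C/D proteins moved little with EP300 siRNA. FBL, the methyltransferase, was at 145, 175 and 176 CPM in siNC, 162, 152 and 149 in siEP300, 217, 175 and 166 in siNC.H2O2 and 165, 187 and 177 in siEP300.H2O2. Its groups overlapped and it was not called (-0.10 ± 0.094 and -0.08 ± 0.094, edgeR adjusted p = 0.366 and 0.5). NOP56 and NOP58 are paralogous scaffold proteins of the same particle. NOP56 was at 159, 177 and 169 CPM in siNC, 179.8, 172 and 179.8 in siEP300, 207, 189 and 176 in siNC.H2O2 and 209, 230.1 and 210.1 in siEP300.H2O2. NOP58 was at 84.8, 85.05 and 87.5 CPM in siNC, 98.2, 98.5 and 104 in siEP300, 126, 116 and 103 in siNC.H2O2 and 124, 139 and 124 in siEP300.H2O2. NOP58 rose without H2O2 (0.23 ± 0.071, edgeR adjusted p = 0.0121) and missed the threshold with it (0.16 ± 0.070, 0.0583), whereas NOP56 missed it without (0.08 ± 0.065, edgeR adjusted p = 0.334) and passed it with H2O2 (0.18 ± 0.065, 0.0256). The NOP58 call was lost with library totals alone (adjusted p 0.0501), and the NOP56 call in 4 of 23 alternatives, among them without siNC.H2O2 8 or 9 or siEP300.H2O2 11 (up to 0.107). Neither gene passed the interaction test for a difference between the settings (edgeR adjusted p = 0.823 for NOP58 and 0.642 for NOP56). NOP10, a small box H/ACA protein, was not called (0.21 and 0.19).

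Large subunit factors gave 1 rise and 4 falls without H2O2 and 2 rises and 2 falls with it, out of 10. Of all genes, 30.1% rose and 31.4% fell without H2O2, and 28.4% and 30.6% with it. RRP1B, a nucleolar protein related to yeast Rrp1 (chr21:43659548-43696079, plus strand), was at 96.5, 82.2 and 84.4 CPM in siNC, 33.4, 32.98 and 35.5 in siEP300, 84.7, 88.3 and 90.2 in siNC.H2O2 and 38.9, 37.2 and 42.8 in siEP300.H2O2. All EP300 siRNA libraries were below all controls, with log2 fold changes of -1.37 ± 0.074 and -1.15 ± 0.073 (edgeR adjusted p = 1.13e-09 and 6.22e-09). Its paralog RRP1, also on chromosome 21, was at 44.02, 51.7 and 50.04 CPM in siNC, 48.2, 42.7 and 44.3 in siEP300, 68.3, 58.1 and 49.3 in siNC.H2O2 and 54.7, 76.8 and 64.7 in siEP300.H2O2. RRP1 overlapped between the groups and was not called (-0.11 ± 0.12 and 0.16 ± 0.12), and neither paralog shares a 100-base window with another gene.

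PES1, BOP1 and WDR12 form the PeBoW complex, which is needed for maturation of the 28S and 5.8S rRNAs, and they did not move as a unit. PES1 fell with log2 fold changes of -0.90 ± 0.089 and -0.90 ± 0.088 (edgeR adjusted p = 6.3e-07 and 5.53e-07). BOP1 was at 57.1, 65.5 and 64.6 CPM in siNC, 51.2, 49.2 and 52.6 in siEP300, 98.05, 79.5 and 75.2 in siNC.H2O2 and 69.3, 88.8 and 90.4 in siEP300.H2O2. BOP1 was lower without H2O2 (-0.29 ± 0.11, edgeR adjusted p = 0.03), a call lost in 8 of 23 alternatives including each omission of an siEP300 library (adjusted p 0.00235 to 0.134), and overlapped between groups with it (-0.02 ± 0.11). WDR12 stood at 0.05 without H2O2 and rose by 0.14 with it (edgeR adjusted p = 0.498 and 0.0487). RRP15, a pre-60S factor, was at 41.5, 43.2 and 38.3 CPM in siNC, 44.9, 46.3 and 48.3 in siEP300, 50.2, 49.5 and 48.2 in siNC.H2O2 and 62.9, 68.3 and 66.7 in siEP300.H2O2. Its EP300 siRNA libraries were above the controls in both settings (0.18 ± 0.062 and 0.42 ± 0.060, edgeR adjusted p = 0.0186 and 2.86e-05). The RRP15 call without H2O2 was lost in 4 of 23 alternatives: upper quartile factors, library totals alone, without siNC 3 and without siEP300 6 (adjusted p up to 0.0967). RRP8, an rRNA methyltransferase, fell by 0.21 without H2O2 and was not called with it, and the rRNA methyltransferase NOP2, NOP16 and NOP53 were called in neither setting.

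The nucleolar chaperones were not called with EP300 siRNA. NPM1 was at 1186, 1285 and 1236 CPM in siNC, 1249.9, 1247 and 1247 in siEP300, 1690.5, 1566 and 1386 in siNC.H2O2 and 1389, 1549 and 1471 in siEP300.H2O2. NCL, which binds nascent pre-rRNA, was at 909.6, 915 and 968 CPM in siNC, 901, 923 and 900.2 in siEP300, 982, 1015 and 843 in siNC.H2O2 and 902, 977 and 948 in siEP300.H2O2. Both overlapped between EP300 siRNA and control in each setting, at 0.01 ± 0.067 and -0.07 ± 0.067 for NPM1 and -0.04 ± 0.064 and -0.01 ± 0.064 for NCL.

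**Figure D2:**
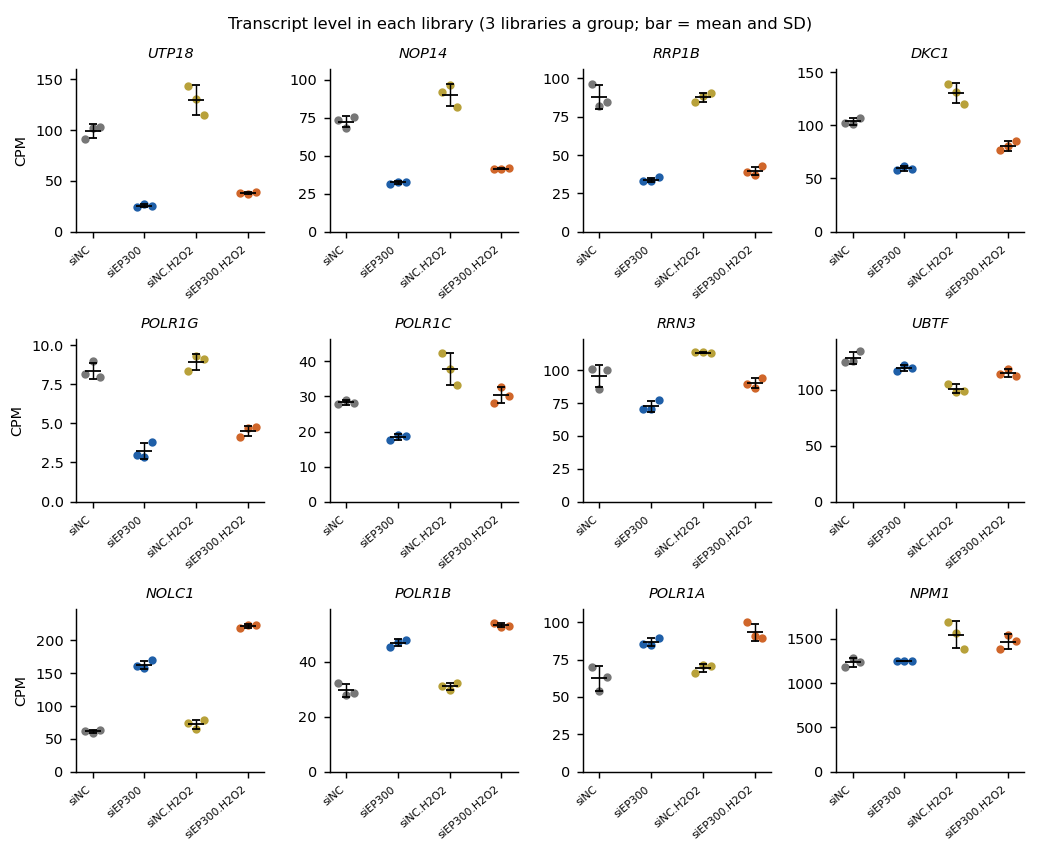
Level in each library (y axis, CPM, starting at 0) of 12 members in the 4 groups; points are libraries and bars the mean and SD of 3. UTP18, NOP14, RRP1B, DKC1 and POLR1G are lower in all EP300 siRNA libraries than in the controls of the same setting, NOLC1, POLR1B and POLR1A are higher, and NPM1 is higher with H2O2.

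Hydrogen peroxide raised ribosome biogenesis transcripts broadly and by small amounts. With control siRNA, 24 of 45 members rose and 3 fell (53.3% and 6.67%), where 17.8% of all genes rose and 17.4% fell (35.3% called). With EP300 siRNA, 30 rose and 0 fell (66.7% and 0%), where 15.9% of all genes rose and 15.1% fell (31.1% called). No member fell with EP300 siRNA at an unadjusted p under 0.05 in the main fit either, where 20.7% of all genes did. At an adjusted p under 0.05, none fell with DESeq2 or any of the other 22 alternatives. In those fits 10.8% to 20.2% of all genes fell. The median log2 fold change over the members was 0.23 and 0.30, and that over all genes was -0.008 and -0.0004. The rises were small in size: 0 members rose over 1.5-fold with control siRNA (4.59% of all genes did) and 3 with EP300 siRNA (3.42% of all genes). No member fell by over 1.5-fold and past the threshold in either, where 4.43% and 4.19% of all genes did. The 2 H2O2 comparisons share no library, and 22 members rose in both of them, where 10.4% of all genes did, while 0 fell in both, where 9.3% did. Across the alternatives, 17 to 28 members rose with control siRNA and 24 to 34 with EP300 siRNA, where 12.2% to 23.5% and 11.7% to 21.9% of all genes did. Each H2O2 comparison shares its libraries with the EP300 comparisons above.

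**Figure D3:**
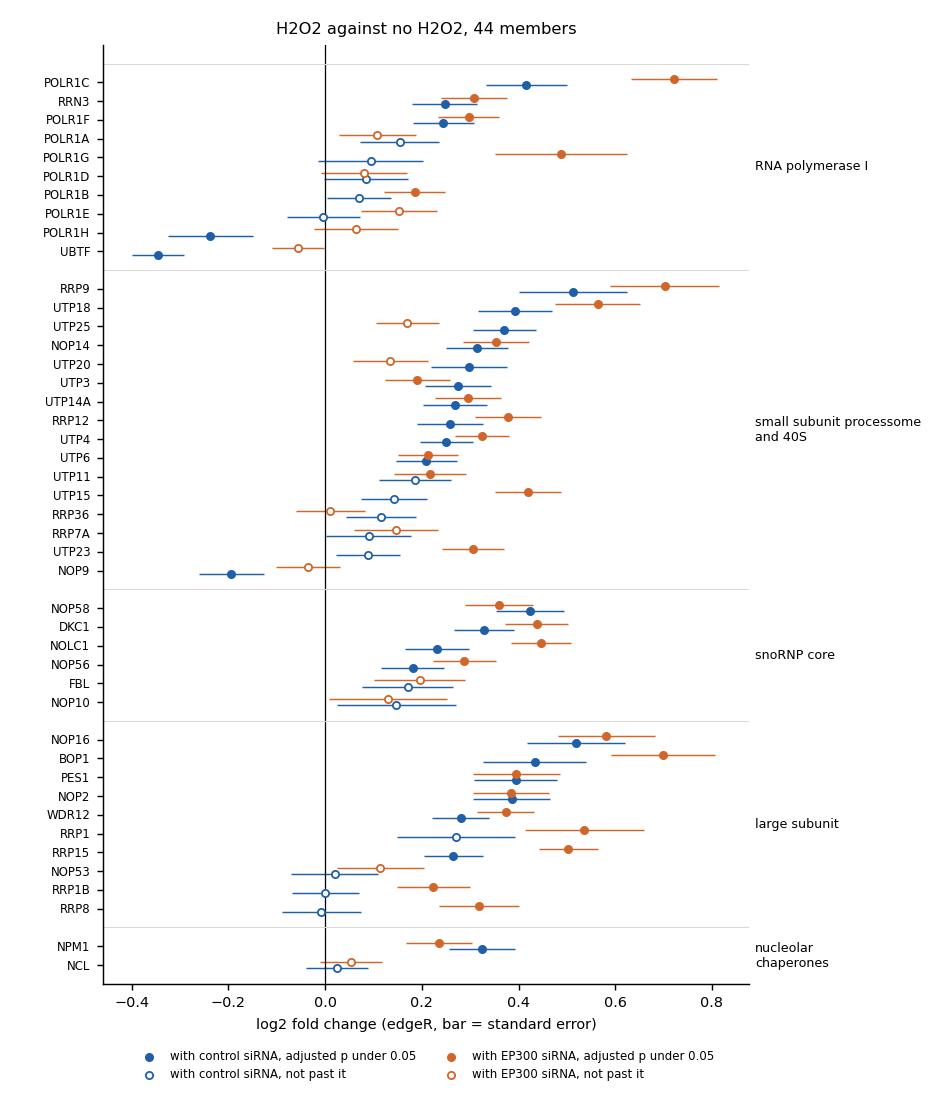
Log2 fold change (x axis, edgeR, bars are standard errors) of H2O2 against no H2O2 for 44 members grouped by role, with control siRNA (blue) and with EP300 siRNA (orange); filled points passed an adjusted p of 0.05. Of the members, 24 and 30 lie above 0 and past the threshold, and UBTF lies lowest in both.

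RRP9 showed the largest rise of a processome gene. RRP9, the protein specific to the U3 snoRNP that base-pairs with the 18S precursor (chr3:51933430-51941941, minus strand), was at 21.3, 22.4 and 23.2 CPM in siNC, 38.4, 29.5 and 27.5 in siNC.H2O2, 20.3, 19.7 and 20.9 in siEP300 and 28.8, 35.3 and 35.01 in siEP300.H2O2. Every H2O2 library was above every library without H2O2, with log2 fold changes of 0.51 ± 0.11 and 0.70 ± 0.11 (edgeR adjusted p = 0.00246 and 0.000283). Of the 17 small subunit genes, 10 rose and 1 fell with control siRNA, and 11 rose and 0 fell with EP300 siRNA. Of all genes, 17.8% rose and 17.4% fell with control siRNA, and 15.9% and 15.1% with EP300 siRNA. UTP18 and NOP14, which EP300 siRNA lowered, were among those that rose with H2O2 in both settings, UTP18 by 0.39 ± 0.077 and 0.56 ± 0.087 and NOP14 by 0.31 ± 0.063 and 0.35 ± 0.069 (edgeR adjusted p = 0.00118, 0.000216, 0.00145 and 0.00129). In siEP300.H2O2 both stayed below their level in siNC, in every library. NOP9, an RNA-binding repeat protein of the pre-40S particle, was at 73.3, 61.9 and 69.7 CPM in siNC, 60.1, 58.4 and 60.6 in siNC.H2O2, 70.7, 71.5 and 72.7 in siEP300 and 73.5, 71.2 and 64.9 in siEP300.H2O2. It fell with control siRNA (-0.19 ± 0.067, edgeR adjusted p = 0.0357), a call lost in 6 of 23 alternatives including without siNC 1, siNC 3, siNC.H2O2 7 or siNC.H2O2 8, and overlapped with EP300 siRNA (-0.04 ± 0.067). In NOP9, 23.5% of the windows are shared with other genes, mainly CIDEB on the opposite strand.

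Large subunit factors rose in 6 of 10 cases with control siRNA and in 9 of 10 with EP300 siRNA, and none fell. Of all genes, 17.8% rose and 17.4% fell with control siRNA, and 15.9% and 15.1% with EP300 siRNA. NOP16, a nucleolar factor of the 60S subunit, was at 20.2, 23.9 and 20.7 CPM in siNC, 34.7, 32.4 and 25.8 in siNC.H2O2, 21.6, 22.3 and 22.7 in siEP300 and 30.9, 35.2 and 33.6 in siEP300.H2O2. H2O2 libraries were all higher, at 0.52 ± 0.10 and 0.58 ± 0.10 (edgeR adjusted p = 0.0011 and 0.000536), and 11.01% of its windows are shared with ARL10 on the opposite strand or other genes. The 3 PeBoW genes all rose in both settings: BOP1 by 0.43 ± 0.11 and 0.70 ± 0.11, PES1 by 0.39 ± 0.086 and 0.40 ± 0.090, and WDR12 by 0.28 ± 0.059 and 0.37 ± 0.059. Their edgeR adjusted p-values were 0.0055, 0.00249 and 0.00195 with control siRNA and 0.000205, 0.00392 and 0.000243 with EP300 siRNA. NOP2 rose by 0.39 and 0.38 but is uncertain, because 44.3% of its windows are shared with AC006064.6 on the same strand, and RRP15 by 0.27 and 0.50. RRP1 missed the threshold with control siRNA (0.27 ± 0.12, edgeR adjusted p = 0.1) and rose with EP300 siRNA (0.54 ± 0.12, 0.00396). RRP1B stood at 0.00 with control siRNA and rose by 0.22 ± 0.076 with EP300 siRNA (edgeR adjusted p = 0.0357), a call lost in 9 of 23 alternatives, among them without siEP300 4 or 5, siNC.H2O2 8, or siEP300.H2O2 10 or 12. NOP53, a nucleolar 60S assembly factor, was not called in either (0.02 and 0.11).

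In the snoRNP core, 4 of 6 genes rose in each setting: NOP58 by 0.42 and 0.36, DKC1 by 0.33 and 0.44, NOLC1 by 0.23 and 0.45, and NOP56 by 0.18 and 0.29. Of all genes, 17.8% rose with control siRNA and 15.9% with EP300 siRNA. The NOLC1 call with control siRNA was lost in 6 of 23 alternatives (library totals alone, both limma fits, only the 2 groups compared, without siNC 2 and without siNC.H2O2 9, with adjusted p up to 0.0879). The NOP56 call with control siRNA (edgeR adjusted p = 0.0418) was lost in 15 of 23 alternatives, and its libraries overlapped. FBL and NOP10 were not called (0.17 and 0.20, and 0.15 and 0.13). NPM1 rose by 0.32 ± 0.067 and 0.24 ± 0.067 (edgeR adjusted p = 0.00178 and 0.0155), with all H2O2 libraries above those without, and NCL overlapped at 0.02 ± 0.064 and 0.05 ± 0.064. The NPM1 call with EP300 siRNA was lost without siEP300 5 or siEP300.H2O2 11 (adjusted p up to 0.0762).

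Of the 10 RNA polymerase I genes, 3 rose and 2 fell under H2O2 with control siRNA, and 5 rose and 0 fell with EP300 siRNA. Of all genes, 17.8% rose and 17.4% fell with control siRNA, and 15.9% and 15.1% with EP300 siRNA. POLR1C rose by 0.42 ± 0.084 and 0.72 ± 0.089 (edgeR adjusted p = 0.00145 and 2.78e-05), and its H2O2 libraries, listed above, did not overlap those without. RRN3 rose by 0.25 ± 0.067 and 0.31 ± 0.068 and POLR1F by 0.24 ± 0.063 and 0.30 ± 0.063 (edgeR adjusted p = 0.00978, 0.00314, 0.00754 and 0.00239). The RRN3 call with control siRNA was lost with library totals alone and in both limma fits (adjusted p up to 0.0637). Of the large subunits, POLR1A was not called (0.15 and 0.11), and POLR1B stood at 0.07 with control siRNA and rose by 0.19 with EP300 siRNA (edgeR adjusted p = 0.0357), a call lost in 11 of 23 alternatives. POLR1G was at 0.09 with control siRNA and rose by 0.49 ± 0.14 with EP300 siRNA (edgeR adjusted p = 0.0136). That call was lost without siEP300 4, siEP300 5 or siEP300.H2O2 12 (adjusted p up to 0.0632), and its value ran from 0.28 to 0.63 over 23 alternatives. POLR1H, a small subunit that helps cleave RNA in a stalled enzyme, was at 22.9, 23.96 and 23.2 CPM in siNC, 22.5, 17.4 and 19.4 in siNC.H2O2, 21.2, 21.1 and 22.8 in siEP300 and 21.5, 24.3 and 22.4 in siEP300.H2O2. It fell with control siRNA (-0.24 ± 0.088, edgeR adjusted p = 0.0475), which was lost in 11 of 23 alternatives (adjusted p 0.003 to 0.203), DESeq2 and 9 omissions of a library among them. In POLR1H, 19.3% of the windows are shared with other genes, mainly ZNRD1ASP on the opposite strand.

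UBTF was the 1 member with a called interaction, a test of whether the response to H2O2 differed between the siRNAs. That is 2.22% of the members, where 3.33% of all genes were called. UBTF (chr17:44205033-44221626, minus strand) binds the ribosomal DNA and holds it in an open, active form. It was at 125, 126 and 135 CPM in siNC, 106, 98.2 and 99.4 in siNC.H2O2, 117, 123 and 119 in siEP300 and 114, 119 and 113 in siEP300.H2O2. The siNC.H2O2 libraries were below all others, and siEP300 and siEP300.H2O2 overlapped. H2O2 lowered UBTF with control siRNA (-0.35 ± 0.053, edgeR adjusted p = 0.000159), a call kept in all 23 alternatives, and the value with EP300 siRNA was -0.06 ± 0.053 (edgeR adjusted p = 0.45). Read the other way, EP300 siRNA gave -0.10 ± 0.053 without H2O2 (edgeR adjusted p = 0.104) and a rise of 0.19 ± 0.053 with it (edgeR adjusted p = 0.0073). The interaction, taken as the change with EP300 siRNA in the H2O2 setting less the change in its absence, was 0.29 ± 0.075 on the log2 scale (edgeR adjusted p = 0.0484). It stayed positive in all 22 alternatives (0.25 to 0.34) and passed the threshold in 11 of them (adjusted p 0.00746 to 0.14). Of the 12 omissions of 1 library, 10 lost the call: each library but siNC 1 and siNC.H2O2 7.

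For the other members the interaction gave no call, which does not show that their responses were equal. Of the 45, 1 was higher and 0 lower, 2.22% of the members against 3.33% of all genes (1.12% higher, 2.21% lower). At an unadjusted p under 0.05, 10 were higher and 1 lower, where 7.64% and 9.22% of all genes were, and DESeq2 also called 1 higher and 0 lower, where 1.62% and 3.06% of all genes were. Of the 44 members without UTP14C, 34 had a positive interaction value and 10 a negative one. That is a larger positive share than the 49.8% of all genes, and the difference was not tested. The largest interaction values after UTP14C were POLR1G at 0.39 ± 0.17, RRP8 at 0.33 ± 0.12 and POLR1C at 0.31 ± 0.12 (edgeR adjusted p = 0.264, 0.152 and 0.209), none past the threshold. These 3 were picked after their values were seen. With siNC 1 and siNC.H2O2 7 both left out, 7 members were higher and 2 lower, where 5.79% and 9.28% of all genes were.

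The H2O2 rise with control siRNA varied in size between the libraries of siNC.H2O2. Of the 24 members that rose, library 7 had the highest value of its group in 19 and library 9 the lowest in 20. Libraries 7 and 8 were above all siNC libraries in all 24, and library 9 in 23. The 24 were picked by their call between these same libraries, so this order largely follows from the choice and is no added support. The same counts over all genes are not given. Without library 7, 22 members rose, where 16.3% of all genes did. Without both siNC 1 and siNC.H2O2 7 the number was 21, where 19.5% of all genes did. The main fit had 24, where 17.8% of all genes did. Libraries 7 and 9 lay at opposite ends of the length-related axis, with scores of -13.9 and 12.1, and members took 0.607% and 0.529% of their counts, beside 0.582% in library 8 and 0.515% to 0.540% in siNC. The part of this axis in the size of the rise was not tested. With an offset for transcript length 28 members rose and 4 fell, where 23.5% and 21.8% of all genes did.

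**Figure D4:**
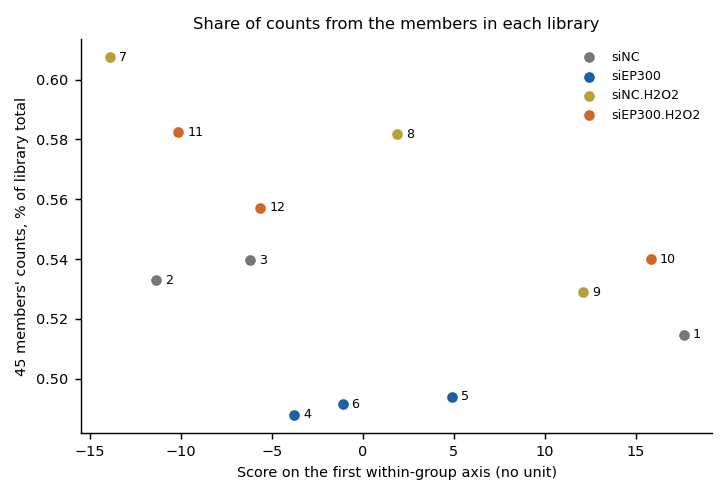
Share of each library's counts taken by the 45 members (y axis, percent) against its score on the first within-group axis (x axis, no unit); each point is 1 of 12 libraries, numbered, coloured by group. The siEP300 libraries lie lowest (0.488% to 0.494%) and siNC.H2O2 7 highest (0.607%).

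Genes of the same pathways outside the 45 were read from 6 lists with 158 of 167 genes tested. With EP300 siRNA, 54 rose and 38 fell without H2O2 (34.2% and 24.1%), and 59 rose and 36 fell with it (37.3% and 22.8%), where 30.1%, 31.4%, 28.4% and 30.6% of all genes did. With H2O2, 69 rose and 4 fell with control siRNA (43.7% and 2.53%), and 94 rose and 3 fell with EP300 siRNA (59.5% and 1.9%), beside 17.8%, 17.4%, 15.9% and 15.1% of all genes. These lists were chosen with earlier results of the data known and share their pathways with the members, so they are no independent check.

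**Figure D5:**
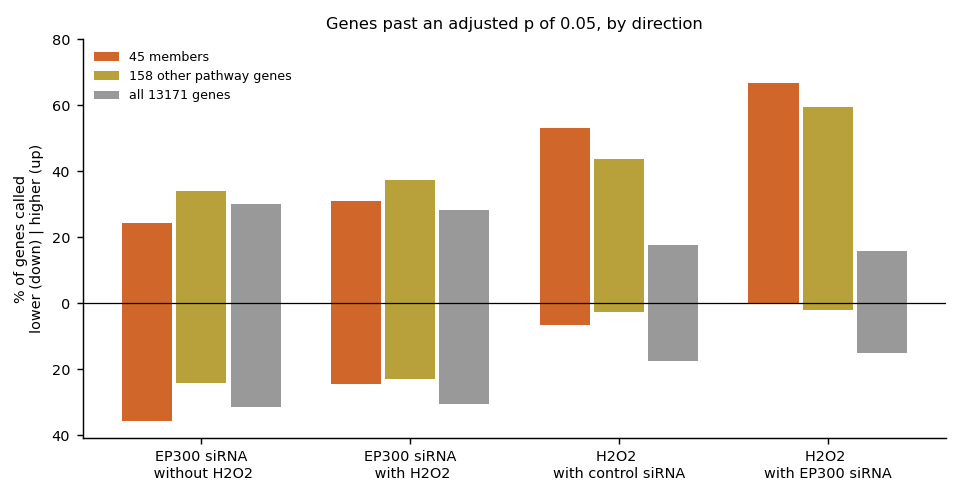
Share of genes past an adjusted p of 0.05 (y axis, percent, higher drawn up and lower drawn down from 0) in 4 comparisons for the 45 members, the 158 other pathway genes and all 13171 genes tested. With H2O2 the members' upward bars reach 53.3% and 66.7% where all genes reach 17.8% and 15.9%, and with EP300 siRNA the bars of the 3 sets are closer together.

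Counts by list are to be read beside the shares of all genes given above, and no list was tested against them. By list, the RNA polymerase I machinery outside the members had 5 of 16 genes higher and 5 lower with EP300 siRNA without H2O2, and 5 and 4 with it. TCOF1, the treacle protein that works with UBTF, rose by 0.56 ± 0.048 and 0.56 ± 0.048, and CAVIN1, also known as a transcript release factor of the polymerase, by 0.59 ± 0.052 and 0.62 ± 0.052 (edgeR adjusted p = 1.29e-07, 1.33e-07, 2.15e-07 and 1.13e-07). BAZ2A, which silences ribosomal DNA repeats, fell with log2 fold changes of -0.58 ± 0.11 and -0.74 ± 0.11, and MYBBP1A at -0.48 ± 0.077 and -0.40 ± 0.075. H2O2 raised 3 and 4 of the 16 and lowered 0. For small subunit genes outside the members, 21 of 51 rose and 10 fell without H2O2 and 22 and 9 with it. The helicase DHX37, the partner of UTP14A, rose by 0.87 ± 0.069 and 1.06 ± 0.069 and the GTPase BMS1 by 0.58 ± 0.048 and 0.70 ± 0.049, while the helicase DDX47 fell with log2 fold changes of -0.72 ± 0.066 and -0.75 ± 0.066 and the rRNA-modifying enzyme TSR3 at -0.71 ± 0.10 and -0.60 ± 0.10. H2O2 raised 26 of these 51 with control siRNA and 37 with EP300 siRNA, and lowered 1 and 0.

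Of the large subunit factors outside the members, EP300 siRNA raised 16 of 51 and lowered 10 without H2O2, and raised 18 and lowered 11 with it. SBDS, which helps release EIF6 from the 60S particle, rose by 1.10 ± 0.069 and 1.25 ± 0.069, and the helicase DDX24 by 0.79 ± 0.045 and 0.79 ± 0.045. EBNA1BP2 fell with log2 fold changes of -1.40 ± 0.091 and -1.20 ± 0.089 and the helicase DDX54 at -0.97 ± 0.085 and -0.80 ± 0.083. H2O2 raised 29 and 38 of the 51 and lowered 0 in both settings. Of 12 snoRNP factors, 2 rose and 5 fell with EP300 siRNA in each setting. NHP2, a box H/ACA protein and partner of DKC1, fell with log2 fold changes of -0.49 ± 0.075 and -0.56 ± 0.075, and the assembly factors NAF1 and SHQ1 of the same particles rose, NAF1 by 0.39 ± 0.058 and 0.44 ± 0.059 and SHQ1 by 0.29 ± 0.082 and 0.22 ± 0.084. H2O2 raised 6 and 4 of the 12 and lowered 0.

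For the RNA exosome and pre-rRNA nucleases, 4 of 16 rose and 5 fell without H2O2 and 5 and 5 with it. DIS3, a catalytic exosome subunit, rose by 0.49 ± 0.058 and 0.48 ± 0.058, and EXOSC5 of its core ring fell with log2 fold changes of -0.73 ± 0.13 and -0.47 ± 0.12. H2O2 raised 2 of the 16 with control siRNA and 5 with EP300 siRNA, and lowered 0 and 1. MPHOSPH6, an exosome cofactor, fell with a log2 fold change of -0.73 ± 0.095 with EP300 siRNA without H2O2, and was the single gene of the 158 with a called interaction (0.51 ± 0.13, edgeR adjusted p = 0.0483). Of 14 RNA polymerase III genes, 6 rose and 4 fell with EP300 siRNA without H2O2 and 7 and 3 with it, with POLR3D higher (0.65 ± 0.055 and 0.67 ± 0.055) and BRF1, the initiation factor of that enzyme, lower (-0.59 ± 0.066 and -0.35 ± 0.066). H2O2 raised 5 and 8 of the 14 and lowered 3 and 2.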

How the data were processed

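The 45 genes and the lists beside them were chosen with earlier results of these data known. RNA sequencing of 12 AC16 libraries, 3 in each of 4 groups, was deposited by the authors as estimated counts by gene symbol and, in a second table, FPKM, which scales to transcript length and library size. HISAT, Bowtie2 and the GRCh38.p13 build are named per the submitters' processing notes. Which program and annotation were used for counting, and whether strand was used, is not given in the sources used here.

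Counts were rounded and tested with edgeR 4.0.16 in R 4.3.3 (quasi-likelihood, TMM scaling, filterByExpr, 4 group means over all 12 libraries, two-sided). Adjustment was by Benjamini-Hochberg over 13171 genes, and a gene was called at an adjusted p under 0.05. CPM are on the TMM-scaled total, and TMM factors ran from 0.969 to 1.05. The SE of a log2 fold change is its size over the root of the F statistic. Alternatives were RLE, upper quartile and unscaled totals, no filter, at least 50 counts in every group mean, DESeq2 1.42.0, limma 3.58.1 on log2(FPKM + 1) and log2(FPKM + 0.1), an offset for transcript length, only the 2 groups compared, and omission of each library. Omission of siNC 1 together with siNC.H2O2 7 was added after seeing the data. Transcript length, in the offset and the within-group axis, is the one implied by the deposited counts and FPKM, not an annotated length.

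Libraries of a group differed beyond sampling noise (chi-square per degree of freedom 1.78 to 18.1), so all were kept. Gene positions and shared 100-base windows came from GENCODE release 29, and promoters from RefSeq. In these windows, 12 members shared at least 5% with other genes (NPM1, POLR1C, RRP36, RRP7A and UTP23 between 6.06% and 13.4%, the other 7 as given in the text) and 33 shared less. Values by library are given for members chosen by role, the largest called changes each way in each comparison and pairs of related genes. In each pathway list up to 2 called genes each way were eligible to be named.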

Additional observations from a re-analysis of the deposited data

Results flagged for a closer look

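The change of UBTF with EP300 siRNA differed between cells with and without H2O2 by the test of the difference itself, an interaction of 0.29 on the log2 scale (SE 0.075, edgeR adjusted p = 0.0484). All 3 siNC.H2O2 libraries, at 98.2 to 106 CPM, lay below the 9 others, at 113 to 135 CPM. The adjusted p ran from 0.00746 to 0.14 over 22 alternatives and was under 0.05 in 11 of them.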

How the results depend on the processing

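No paired analysis was possible because the sample titles number the libraries 1 to 12 and no number is shared between groups. For single genes, 70 results were recomputed 1606 times in all: 1497 values kept direction and side of the threshold, 109 kept direction only, 0 reversed, and 53 of the 70 results kept both under every alternative. Members higher with EP300 siRNA without H2O2 numbered 11, but 7 with upper quartile factors and 6 with library totals alone, where 25.9% and 24.8% of all genes were higher in place of 30.1%. Leaving out 1 library at a time gave 7 to 13. The 7 came without siEP300 6, where 26.9% of all genes were higher, and the 13 without siNC.H2O2 9, where 31.1% were. The 3 members lower with H2O2 and control siRNA became 1 with only the 2 groups compared, and 1 to 3 without 1 library (1 without siNC 3 or siNC.H2O2 8). For the interaction, the 1 member higher became 0 with no filter on low counts and 0 to 3 without 1 library, with 3 when siNC.H2O2 7 was left out. Of all genes, 1.12% were higher in the main fit, 0.698% with no filter and 1.88% without siNC.H2O2 7. With siNC 1 and siNC.H2O2 7 both left out, 7 members were higher and 2 lower, where 5.79% and 9.28% of all genes were. Other counts stayed within 1.5 times under every alternative, while the share of all genes called moved as well. With EP300 siRNA alone 13 to 18 members were lower, where 23.7% to 36.4% of all genes were. With EP300 siRNA and H2O2, 11 to 21 were higher and 11 to 13 lower, where 22.3% to 36.4% and 23% to 32.3% were. H2O2 raised 17 to 28 with control siRNA and 24 to 34 with EP300 siRNA, where 12.2% to 23.5% and 11.7% to 21.9% of all genes rose. The 70 results cover only a part of the called members, and WDR12, RRP8, UTP11, RRP7A, PES1, POLR1D and POLR1E were not among them. Of the 70, calls lost in more than 8 alternatives included NOP56 and POLR1H (H2O2, control siRNA). The others were UTP3, POLR1B and RRP1B (H2O2, EP300 siRNA) and the UBTF interaction. The cause of these losses was not tested. With 3 libraries a group, 44 members varied by a median of 5.40% within groups, and UTP14C, at 71 counts or fewer, allows only a bound.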
